A study of Rattus norvegicus with 82 samples.

Results

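The comparison described here is ADX against Sham in the dorsal raphe of the rat. Its members are the 8 arrays of 82 in the series whose titles carry the region code for dorsal raphe and the treatment ADX (4 arrays) or Sham (4 arrays). Each treatment had 2 arrays labelled AM and 2 labelled PM, and 4 pADX dorsal raphe arrays, also 2 at each time, are given beside them. The source name of these arrays reads frontal cortex, so the region was taken from title and description and checked against marker genes below. Treatments are named by abbreviation alone in the labels. Adrenalectomy, surgical loss of both adrenal glands, is commonly shortened to ADX, and a Sham operation leaves them in place, while the meaning of pADX is not stated. Strain, sex, age, hormone replacement and the interval after surgery are not stated either. The labels do not say whether an array holds RNA of 1 animal or of a pool, so the p-values below measure only the spread between these arrays.

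The dorsal raphe is the midbrain nucleus that holds many of the serotonin neurons projecting to the forebrain. Those neurons take up serotonin with the transporter encoded by Slc6a4, load it into vesicles with Slc18a2 and are specified by transcription factors such as Fev. Corticosterone, the main adrenal glucocorticoid of the rat, binds the glucocorticoid receptor (Nr3c1) and the mineralocorticoid receptor (Nr3c2), which then act on transcription through DNA elements near their target genes. Its secretion in rats runs in a daily rhythm with a peak before the active phase, and adrenalectomy removes this source.

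The RNA carried the marks of the raphe. Slc6a4 had a mean log2 intensity of 10.66 over the 12 dorsal raphe arrays (9.84 to 11.36), against 9.61 in the locus coeruleus and at most 4.15 in each of the other 5 regions, where 4 is the floor of the scale. Fev averaged 6.86 in the dorsal raphe and 5.85 in the locus coeruleus. Dbh, which makes noradrenaline, averaged 4.13 in the dorsal raphe, with 6 of 12 arrays at the floor, and 8.34 in the locus coeruleus. The dopamine transporter gene Slc6a3 (7.14) and Th (8.54), which opens catecholamine synthesis, were also present in the dorsal raphe arrays. In bulk RNA, fewer cells of a type and less RNA per cell cannot be told apart.

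Array brightness differed between the groups before normalization. The mean intensity as deposited, after trimming 2% at each end, ran from 83.7 to 102 in ADX, 87.7 to 124 in pADX and 110 to 150 in Sham arrays. Only the 2 Sham PM arrays sat at the value of 150 that many arrays of other regions share, so among the Sham arrays scaling and time of day coincided. Quantile normalization was used for this reason. Sham AM replicate 2 stood apart in cerebellum markers, whose summed linear level was 2820 there, against 294 to 510 in the ADX arrays, 247 to 539 in the pADX arrays and 217 to 360 in the other Sham arrays. Correlations between pairs of the 12 arrays ran from 0.972 to 0.987.

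The fit over all 31042 probe sets passed 2 of them, or 0.00644%, and both fell in ADX (limma, Benjamini-Hochberg adjusted p under 0.05; 2308 had an unadjusted p under 0.05). One was Sult1a1. The other carries no gene name and had all 4 ADX and all 4 pADX arrays at the floor, against 4.77 to 4.95 in Sham. Many probe sets rest at the floor and have no spread, which left limma's shared variance estimate with 0.741 prior degrees of freedom. The fit was therefore repeated on the 18625 probe sets whose mean log2 intensity lay above the 40th percentile, 4.82, where the prior degrees of freedom were 6.75. That fit passed 20 probe sets, or 0.107%, of which 5 rose and 15 fell in ADX. Among the 20, 15 carry 1 gene symbol, and they are described next with adjusted p-values among the brighter probe sets. Apart from Sult1a1, their adjusted p over all probe sets ran from 0.0764 to 0.265, so these 14 did not pass in the fit over all probe sets at the floor used here.

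Sult1a1, a phenol sulfotransferase that conjugates catechols and drugs, fell most firmly. Its log2 intensity was 4.74 and 4.42 at AM and 4.53 and 4.86 at PM in ADX raphe, 6.35, 5.78, 6.04 and 5.65 in pADX raphe in the same order, and 6.50, 6.8, 7.16 and 6.68 in Sham raphe. All ADX arrays lay below all pADX arrays, which lay below all Sham arrays. The change from Sham was -2.15 (SE 0.20), a 4.43-fold lower intensity in ADX (adjusted p = 0.034 over all probe sets and 0.000316 among the brighter ones). Among the brighter probe sets it passed with each of the 12 arrays left out in turn (adjusted p = 0.000226 to 0.00333). It missed the threshold with a model term for the scaling state, which marks only the 2 Sham PM arrays (-1.98, adjusted p = 0.0511). Over all probe sets it passed in only 3 of those 12 fits, with adjusted p-values of 0.0227 to 0.191.

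Heph encodes hephaestin, a copper ferroxidase that helps cells release iron. It read 5.30, 5.20, 5.36 and 5.01 in ADX raphe, 6.43, 6.13, 6.41 and 5.74 in pADX raphe and 6.75, 6.52, 6.60 and 6.31 in Sham raphe, a change of -1.33 (2.51-fold lower in ADX, adjusted p = 0.0114). Prodh, the mitochondrial enzyme that opens proline breakdown, read 6.33, 6.69, 6.99 and 6.92 in ADX, 7.78, 7.66, 7.60 and 7.56 in pADX and 7.78, 7.50, 7.68 and 7.69 in Sham (-0.93, adjusted p = 0.0114). Every ADX array was below every pADX and Sham array for both genes. The pADX mean of Prodh was 7.65, next to the Sham mean of 7.66. For Heph the pADX mean was 6.18, against 6.54 in Sham, a difference that did not pass (adjusted p = 0.726).

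Htra1, a secreted serine protease that cleaves matrix proteins, had log2 intensities of 8.10, 7.77, 8.35 and 8.12 in ADX raphe, 8.98, 9.02, 8.88 and 9.03 in pADX raphe and 9.16, 8.79, 8.75 and 9.27 in Sham raphe (-0.91, adjusted p = 0.0114). Paqr8, a membrane progestin receptor, read 9.65, 9.54, 9.48 and 9.25 in ADX, 10.20, 9.98, 9.90 and 10.04 in pADX and 10.16, 10.13, 9.99 and 10.01 in Sham (-0.59, adjusted p = 0.0114). Again no ADX array overlapped with another treatment. Paqr8 was the brightest of the genes that fell, and 3 other probe sets of it were on the array, with changes of -0.54, -0.42 and -0.04 that did not pass.

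Grifin, a galectin-related protein first described in the lens, showed the largest change, -2.22 (SE 0.40, adjusted p = 0.0114), and the widest spread. It read 5.17, 5.35, 7.26 and 5.64 in ADX raphe, 7.47, 7.31, 8.79 and 8.30 in pADX raphe and 8.20, 7.68, 7.65 and 8.77 in Sham raphe. ADX PM replicate 1 alone approached the other groups. Sorcs1, a sorting receptor of neurons, read 6.65, 6.89, 6.53 and 6.74 in ADX, 7.93, 7.90, 7.76 and 7.01 in pADX and 7.74, 7.72, 7.65 and 7.93 in Sham (-1.06, adjusted p = 0.0194).

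The remaining 4 genes that fell had adjusted p-values of 0.0322 to 0.047. The metallothionein gene Mt2A, whose product binds zinc and copper, read 7.24, 7.13, 7.43 and 7.71 in ADX raphe, 8.22, 7.89, 7.96 and 8.01 in pADX raphe and 7.90, 8.02, 8.09 and 8.35 in Sham raphe (-0.71, adjusted p = 0.0418). Gjb2 encodes connexin 26, a gap junction subunit. It read 7.24, 7.12, 7.17 and 7.55 in ADX, 8.09, 7.39, 7.55 and 7.54 in pADX and 7.97, 8.0, 8.53 and 8.20 in Sham (-0.91, adjusted p = 0.047), and here the pADX arrays overlapped with those of ADX. Aifm3, a mitochondrial relative of apoptosis-inducing factor (-0.71, adjusted p = 0.0385), and Klhdc7a, a kelch-domain protein (-0.81, adjusted p = 0.0322), completed the 11 named genes that fell. Grifin, Gjb2 and Camk2n1, which rose, lay outside the rule for naming genes and were chosen after their values were seen. The 4 probe sets without a single gene name that fell had changes between -1.79 and -0.80, the largest a lower bound in size since 2 of its ADX arrays were at the floor.

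Igfbp5, which binds insulin-like growth factors outside cells, rose most. Its log2 intensity was 8.23, 8.47, 8.56 and 8.42 in ADX raphe, 7.70, 7.83, 7.73 and 7.32 in pADX raphe and 7.46, 7.28, 7.78 and 7.17 in Sham raphe, a change of 1.0 (2.0-fold higher in ADX, adjusted p = 0.0114). Olfml1, a secreted protein with an olfactomedin domain, read 7.90, 7.91, 8.0 and 8.34 in ADX, 7.39, 7.71, 7.68 and 7.60 in pADX and 6.79, 7.29, 7.29 and 7.18 in Sham (0.90, adjusted p = 0.0114). All ADX arrays exceeded all others for both, and the pADX arrays of Olfml1 lay above all Sham arrays as well. A second bright probe set of Igfbp5 had a change of 0.61 and one of Olfml1 a change of 0.65, neither of which passed.

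Lix1 read 8.59, 8.81, 8.95 and 9.05 in ADX raphe, 8.26, 8.41, 8.61 and 8.52 in pADX raphe and 8.12, 8.25, 8.51 and 8.50 in Sham raphe (0.51, adjusted p = 0.0322). On this gene ADX and Sham were apart by 0.08 at the nearest arrays, and time of day shifted all 3 treatments the same way, with PM arrays higher. Camk2n1 encodes an inhibitor of calcium/calmodulin-dependent kinase II. It was the one gene of the 15 whose groups overlapped, at 7.47, 7.02, 8.22 and 8.04 in ADX, 6.96, 7.05, 7.30 and 7.56 in pADX and 6.25, 6.54, 7.12 and 7.48 in Sham (0.84, adjusted p = 0.0466). Within each time of day its ADX arrays were above its Sham arrays. Its other, slightly brighter probe set had a change of 0.24 (adjusted p = 0.602), so the call rests on the dimmer of the pair.

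**Figure D1:**
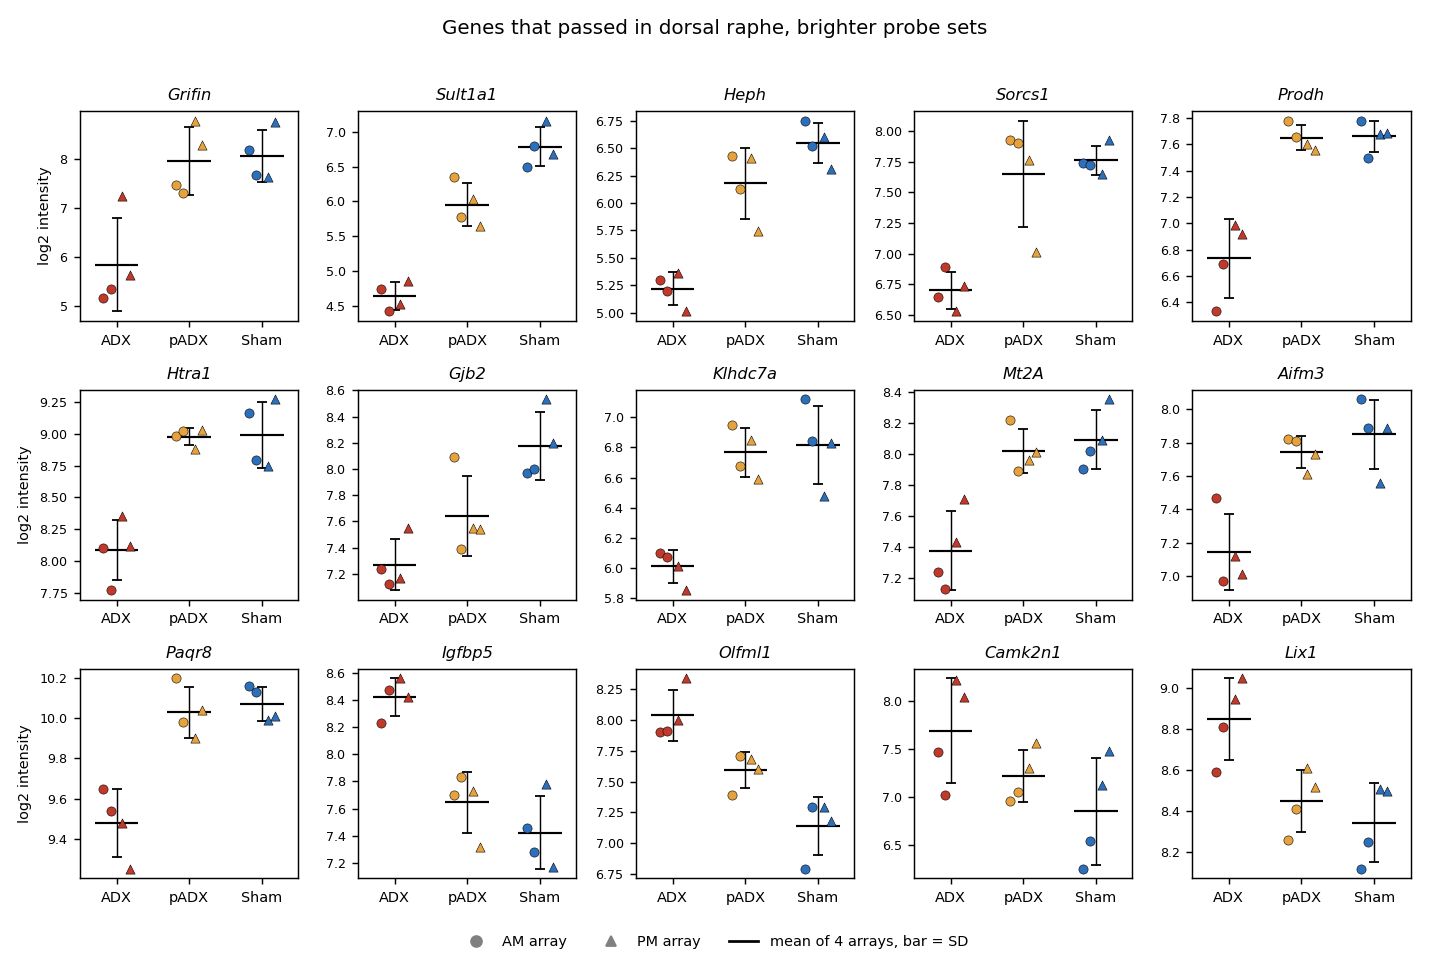
Log2 intensity (vertical axes, each with its own range) of the 15 named genes that passed among the brighter probe sets, by treatment (ADX, pADX, Sham), with 1 symbol per array, circles for AM and triangles for PM, and the mean and SD of 4 arrays. ADX stands apart from Sham for every gene but Camk2n1, and for Sult1a1 the pADX arrays lie between, at 5.65 to 6.35.

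How firmly these 20 calls stand depended on single arrays. Without ADX AM replicate 2, ADX PM replicate 2 or Sham AM replicate 1, 1 probe set passed in each case, which was Sult1a1; without Sham PM replicate 2 there were 5 and without ADX AM replicate 1, 9. Without Sham PM replicate 1 or pADX AM replicate 2 there were 12 each, and without Sham AM replicate 2, the array with cerebellum markers, 8. The 6 named genes among those 8 were Sult1a1, Paqr8, Heph, Prodh, Htra1 and Olfml1. The scaling state as a term marks only the 2 Sham PM arrays, so its estimates equal those with these arrays left out. It is not a separate correction for scaling. With that term none passed in limma (913 had an unadjusted p under 0.05), and with both Sham PM arrays left out Sult1a1 and Grifin did.

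Promoter letters were read for the passing genes, since steroid receptors act through DNA elements. The RefSeq promoter table of assembly GRCr8 matched 11 of the 15 genes, and the 250 bases before each gene's start were searched on both strands for the palindrome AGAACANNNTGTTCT, for its looser form GNACANNNTGTNC and for either 6-base arm, AGAACA or TGTTCT, which lies within the first. None of the 11 windows held the palindrome, against 1 of all 27457 promoters of that length (0.00364%), and none held the looser form, against 0.364% of all. An arm was found in 1 of 11 windows (9.09%), that of Sult1a1, against 17.1% of all promoters. The windows of Sult1a1, the gene with the firmest fall, on the minus strand at chr1:190706113-190706362, and of Igfbp5, with the largest rise, on the minus strand at chr9:81914188-81914437, are shown 5′ to 3′ with an arm in capitals. It begins 89 bases before the start of Sult1a1. A match describes letters in these windows and shows no binding.
Sult1a1: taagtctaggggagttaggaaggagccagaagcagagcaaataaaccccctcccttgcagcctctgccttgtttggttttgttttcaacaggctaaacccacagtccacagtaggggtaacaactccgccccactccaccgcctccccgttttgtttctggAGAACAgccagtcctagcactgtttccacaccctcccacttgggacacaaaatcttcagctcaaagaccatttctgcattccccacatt
Igfbp5: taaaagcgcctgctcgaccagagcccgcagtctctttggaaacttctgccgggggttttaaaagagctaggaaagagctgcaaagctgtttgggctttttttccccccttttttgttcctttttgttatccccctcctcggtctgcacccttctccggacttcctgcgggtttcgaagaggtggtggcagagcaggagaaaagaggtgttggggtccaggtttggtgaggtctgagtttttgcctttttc

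Genes that glucocorticoids are known to induce were then viewed as a list. This list, like those below, was chosen with earlier results of these data known, and it holds Sult1a1. Its counts are therefore a description and no independent test. Of 45 genes, 42 were measured, and 2 of them, Sult1a1 and Mt2A, fell among the brighter probe sets while none rose; over all probe sets Sult1a1 alone fell. The change was negative in 33 members, positive in 5 and within 0.005 of 0 in 4, with a median of -0.21. Over all 14217 named genes, 6000 changes were negative, 6389 positive and 1828 within 0.005 of 0, the median was 0.00, and 11 genes fell and 3 rose among the brighter probe sets. These counts take the brightest probe set of each gene, which leaves out the passing one of Camk2n1. In 6 members all ADX arrays lay below all Sham arrays (Sult1a1, Gpd1, Mt2A, Glul, Bcl6 and Klf9), whereas 1.81% of all probe sets had that pattern, and in none did they lie above (1.32% of all). Among the brighter probe sets these shares were 2.42% below and 1.72% above. The list's median was -0.15 at AM and -0.23 at PM, and -0.03 for pADX against Sham.

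Most members did not pass. Fkbp5, a chaperone that damps receptor signalling, read 6.33, 6.24, 6.4 and 6.21 in ADX raphe, 6.29, 6.32, 6.31 and 6.56 in pADX raphe and 6.34, 6.27, 6.52 and 6.63 in Sham raphe, with overlap (-0.14, adjusted p = 0.779 among the brighter probe sets). Tsc22d3, which encodes the leucine zipper protein GILZ, had a change of -0.22 (adjusted p = 0.575) and Klf9, a transcription factor, one of -0.29 (adjusted p = 0.36). Glul, the glutamine synthetase of astrocytes, read 10.69, 10.59, 10.89 and 10.87 in ADX, 11.65, 11.36, 11.43 and 11.24 in pADX and 11.35, 11.09, 11.09 and 11.45 in Sham. Its groups were apart, yet the change of -0.48 did not pass (adjusted p = 0.14). Other bright probe sets of Glul had changes of -0.34 and -0.24, neither of which passed. Sgk1 (-0.78, adjusted p = 0.33), described by time of day below, and Dusp1, a phosphatase that acts on MAP kinases (-0.46), did not pass over both times. At the other end of the list, Cebpb (0.53) and Per2 (0.18) had the largest positive values among brighter members, and neither passed.

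**Figure D2:**
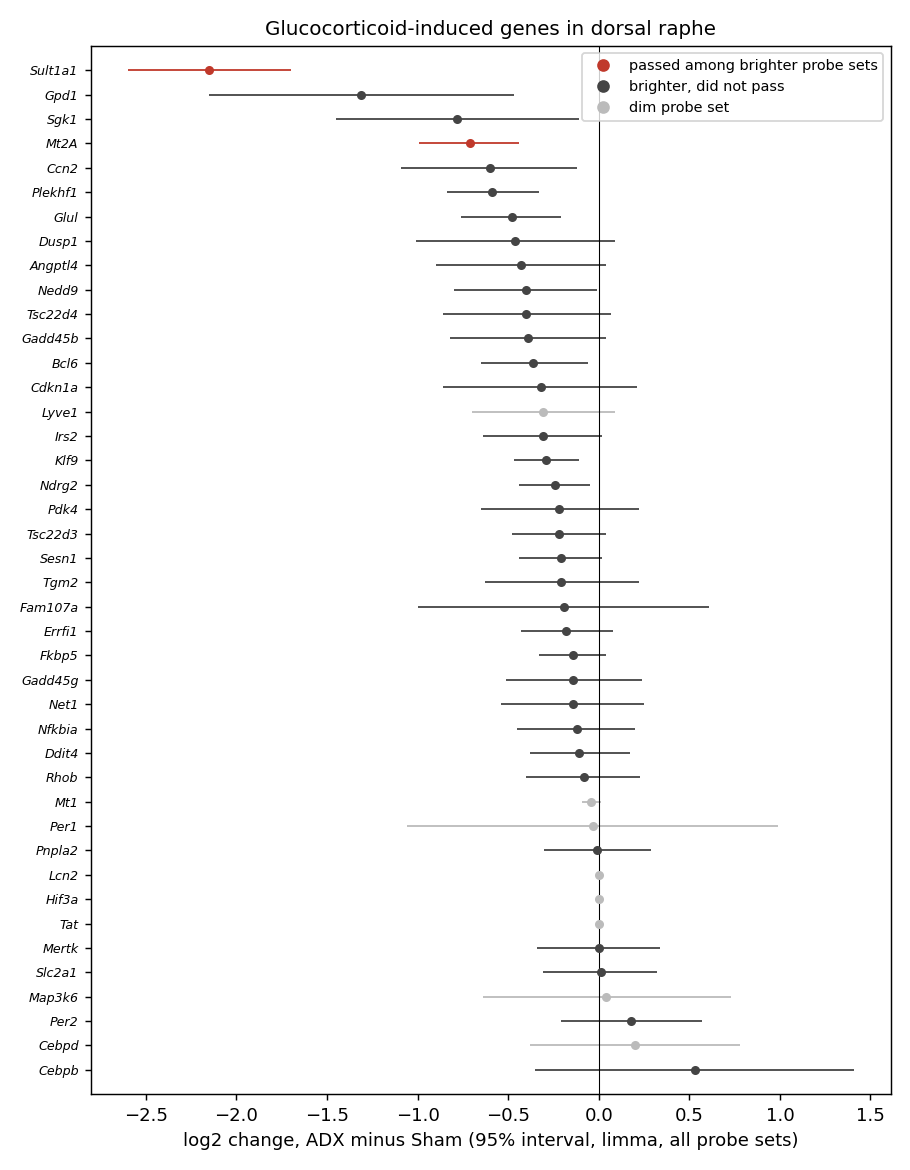
Log2 change, ADX minus Sham (horizontal axis), with its 95% interval from the fit over all probe sets, for the 42 measured glucocorticoid-induced genes, ordered by size. Most points lie left of 0, and the 2 that passed among the brighter probe sets, Sult1a1 at -2.15 and Mt2A at -0.71, are in red.

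Time of day was then separated, since the corticosterone rhythm and the scaling of the Sham arrays both differ between AM and PM. Gpd1, the glycerol-3-phosphate dehydrogenase that links glycolysis to lipid synthesis, read 7.22 and 6.90 in ADX AM, 7.26 and 7.31 in ADX PM, 8.17 and 8.16 in pADX AM, 7.67 and 8.07 in pADX PM, 7.66 and 7.62 in Sham AM, and 9.06 and 9.59 in Sham PM. Sgk1, a kinase that regulates ion transport, read 7.74 and 7.90 in ADX AM, 7.64 and 7.78 in ADX PM, 8.43 and 8.46 in pADX AM, 8.05 and 8.30 in pADX PM, 8.08 and 7.83 in Sham AM, and 9.43 and 8.86 in Sham PM. For both genes the Sham PM pair stood above all other arrays, while the 4 ADX arrays spanned 6.90 to 7.31 for Gpd1 and 7.64 to 7.90 for Sgk1.

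At PM, Gpd1 fell in ADX by 2.04 on the log2 scale (adjusted p = 0.00171 among the brighter probe sets), Sgk1 had a change of -1.43 (adjusted p = 0.0175) and Sult1a1 one of -2.23 (adjusted p = 0.0175). These were the 3 brighter probe sets that passed at PM, or 0.0161%, and in all 3 ADX was lower. Over all probe sets 21 passed (0.0677%), of which 18 were dim. At AM, Gpd1 stood at -0.58 and Sgk1 at -0.13, and neither passed. The difference between times was -1.46 for Gpd1 and -1.30 for Sgk1 and did not pass (adjusted p = 0.69 for both). None of the 18625 brighter probe sets passed that test in limma, although 881 had an unadjusted p under 0.05, and 34 of all 31042 (0.11%) did, 33 of them dim. Scaling and time of day cannot be told apart in the Sham arrays, so the PM values carry that limit.

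At AM neither ADX nor Sham arrays sat at the value of 150, though their trimmed means as deposited still differed (98.9 and 102 in ADX, 129 and 110 in Sham). There, 1 brighter probe set passed (0.00537%). It was Acyp2, which encodes an acylphosphatase and read 8.52 and 8.52 in ADX AM, against 9.54 and 9.62 in Sham AM (-1.06, adjusted p = 0.0283). At PM its values were 9.52 and 9.26 in ADX and 9.59 and 9.80 in Sham (-0.30, adjusted p = 0.556). Sult1a1 had a change of -2.07 at AM (adjusted p = 0.0549) and Prodh one of -1.13 (adjusted p = 0.0727). All 15 genes had the same sign at AM and PM. They were picked on both times together, and groups that do not overlap must share a sign, so this is no separate test. The AM and PM changes were -2.68 and -1.76 for Grifin, -1.39 and -1.27 for Heph, 0.98 and 1.01 for Igfbp5 and 0.86 and 0.93 for Olfml1. Over all probe sets 22 passed at AM (0.0709%), each of them dim. Those named by rule had mean log2 intensities of 4.01 to 4.16, next to the floor, which bounds their changes. They were Traf5 (0.50), Misfal (0.31), Kat6b (0.30), Zfp36l2 (0.12) and Cemip2 (0.06), and Asb11 (-0.89), Ampd1 (-0.58), Mfsd4b2l1 (-0.37), Efhc2 (-0.33) and Xkr8 (-0.21).

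**Figure D3:**
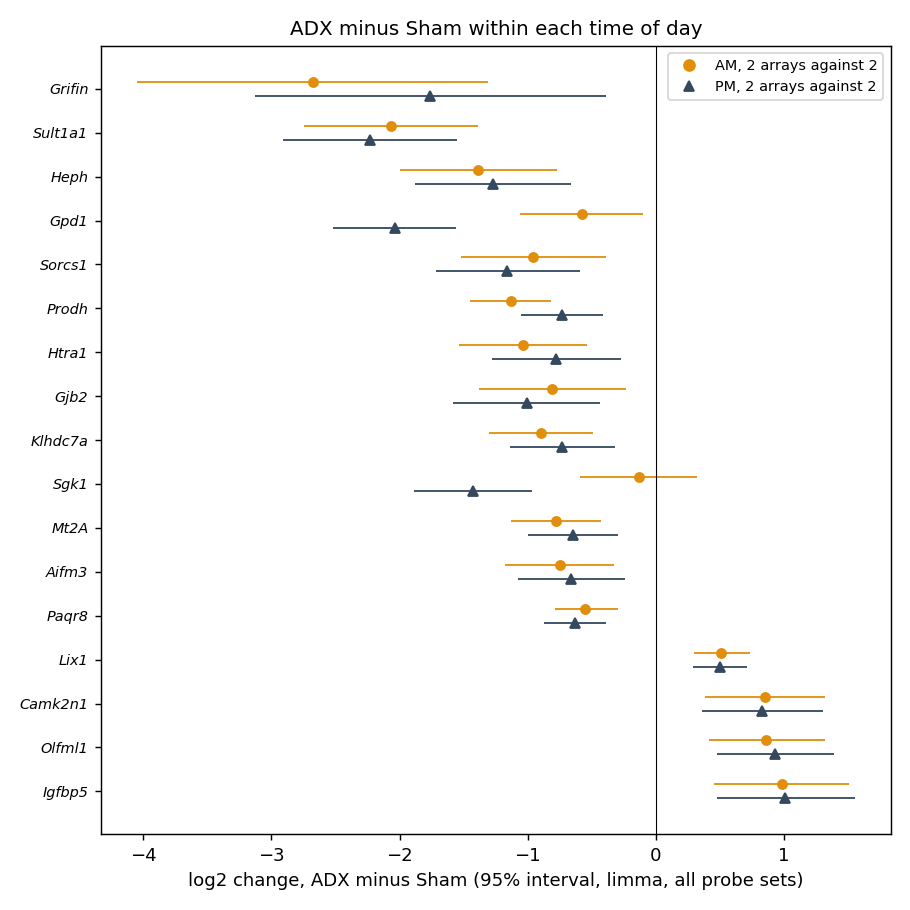
Log2 change, ADX minus Sham (horizontal axis), within AM (circles) and within PM (triangles), with 95% intervals from the fit over all probe sets, for the 15 genes that passed over both times and for Gpd1 and Sgk1. The 2 times lie close together for most genes and apart for Gpd1 (-0.58 at AM, -2.04 at PM) and Sgk1 (-0.13 at AM, -1.43 at PM). For neither gene did the difference between times pass.

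The pADX arrays offered a second comparison for ADX, in which no array sat at the value of 150. Their trimmed means as deposited were still unlike, at 83.7 to 102 in ADX and 87.7 to 124 in pADX. Against pADX, 8 brighter probe sets passed (0.043%), of which 6 fell in ADX and 2 rose. The 6 were Grifin (-2.11), Sult1a1 (-1.32), Prodh (-0.92), Htra1 (-0.89), Glul (-0.66) and Paqr8 (-0.55), with adjusted p-values of 0.0272 to 0.044. The 2 that rose were LOC102555617 (0.87), a locus without a gene name, and a probe set without a gene symbol (0.70), which was also the 1 that passed over all probe sets (0.00322%). No brighter probe set passed for pADX against Sham in limma (1276 had an unadjusted p under 0.05), and the 1 dim probe set that did (0.00322% of all) was the unnamed one with ADX and pADX at the floor. The 3 comparisons share arrays. For Sult1a1 the values side by side were -2.15 for ADX against Sham, -1.32 for ADX against pADX and -0.83 for pADX against Sham (adjusted p = 0.695).

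No gene of the serotonin neuron list passed. Of 21 genes on that list 16 were measured, with calls in neither direction; Tph2, the serotonin-synthesizing hydroxylase of brain, is not analysed here. The median change was 0.15, with 11 positive and 5 negative, and their summed linear level was 8580 to 10200 in ADX and 7960 to 9780 in Sham arrays (two-sided exact permutation p = 0.943 over the 70 splits, where 0.0286 is the smallest possible). Slc6a4 read 10.37, 11.10, 10.55 and 10.85 in ADX raphe, 10.25, 10.32, 9.84 and 11.36 in pADX raphe and 11.06, 10.92, 10.90 and 10.41 in Sham raphe. The change was -0.10 with a 95% interval of -0.84 to 0.63, and the groups overlapped.

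Slc18a2, the vesicular monoamine transporter, read 10.14, 10.07, 10.42 and 10.24 in ADX raphe, 9.47, 9.26, 8.75 and 10.70 in pADX raphe and 9.91, 10.03, 10.04 and 9.40 in Sham raphe. Its ADX arrays all lay above the Sham arrays, by 0.03 at the nearest, and the change of 0.37 did not pass (adjusted p = 0.739). The organic cation transporter gene Slc22a3, which takes up monoamines with low affinity, showed the same order (0.47, adjusted p = 0.655). These were 2 of 16 members with ADX above Sham in every array, a pattern held by 1.72% of the brighter probe sets. Other bright probe sets of Slc18a2 had changes of 0.54 and 0.19, neither of which passed. Fev had a change of 0.09 (interval -0.25 to 0.43), Ddc, the decarboxylase, 0.09 (-0.36 to 0.53), Gch1, which opens the synthesis of the hydroxylase cofactor, 0.18 (-0.33 to 0.68), and the autoreceptor gene Htr1a 0.15 (-0.36 to 0.67). At the lower end were En2 (-0.21) and Maob (-0.12). Replicate 2 of pADX PM was high for Slc6a4, Slc18a2 and Gch1 alike.

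**Figure D4:**
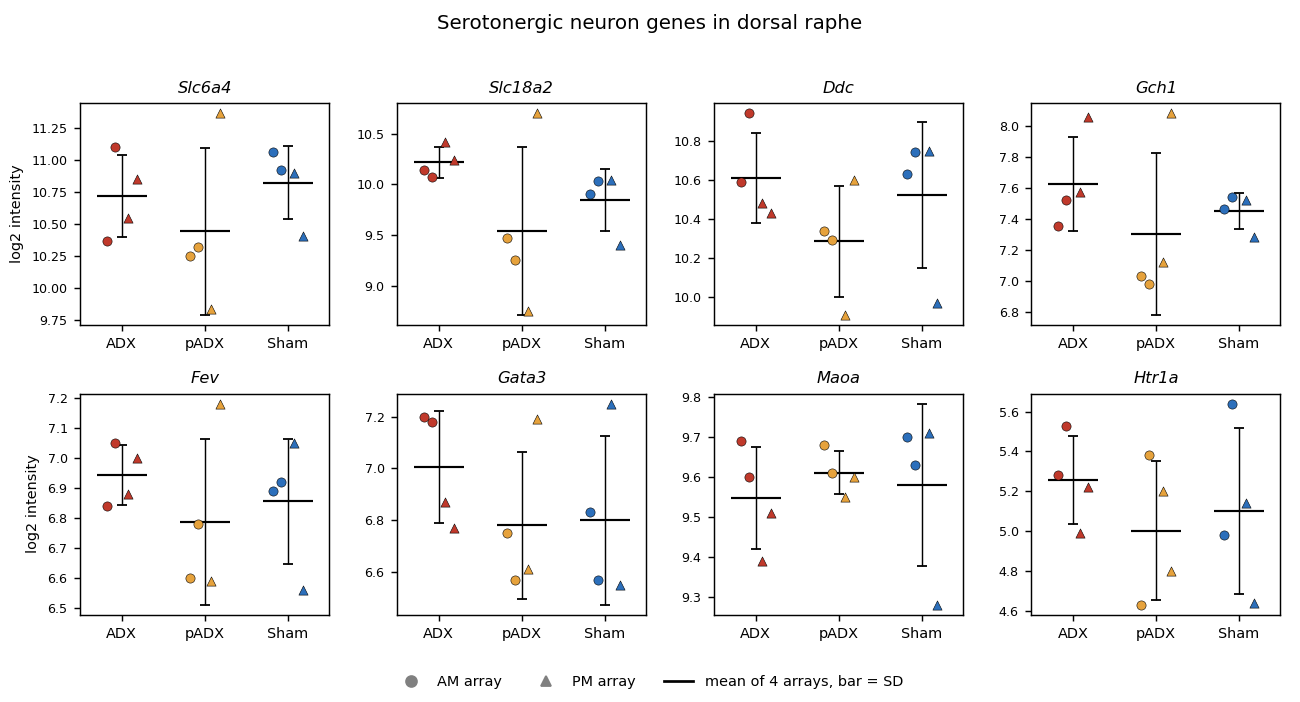
Log2 intensity (vertical axes, each with its own range) of 8 serotonergic neuron genes by treatment (ADX, pADX, Sham), with 1 symbol per array, circles for AM and triangles for PM, and the mean and SD of 4 arrays. The ADX and Sham arrays overlap for all shown but Slc18a2, whose change of 0.37 did not pass.

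Receptors for corticosteroids and serotonin gave similar pictures. Nr3c1 read 8.51, 8.66, 8.14 and 8.31 in ADX raphe, 8.68, 8.66, 8.37 and 8.23 in pADX raphe and 8.52, 8.71, 8.21 and 8.11 in Sham raphe, with a change of 0.02 (interval -0.12 to 0.16). PM arrays were lower than AM arrays in every treatment. Nr3c2 had a change of 0.29 (adjusted p = 0.551). Of 16 measured corticosteroid receptor and HPA axis genes none passed (10 positive, 5 negative, median 0.03), with Ucn (0.59) and Crh (0.43), both stress peptides, at the upper end and Hsd11b1 (-0.57), which regenerates active glucocorticoid, and Avpr1a (-0.39) at the lower. None of 14 serotonin receptor genes passed (7 positive, 5 negative, median 0.03), and Htr2a (-0.43), Htr4 (-0.25), Htr1a (0.15) and Htr5b (0.21) marked the ends among brighter members.

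Fuel, iron and trophic genes held 1 passing member each, where 0.107% of all brighter probe sets passed, 2.42% had every ADX array below every Sham array and 1.72% every one above. Prodh was the 1 that fell of 24 fuel genes (12 positive, 11 negative, median 0.01), where Gpd1 (-1.31, adjusted p = 0.159) and Pygm, the glycogen phosphorylase of muscle and astrocytes (-0.55, adjusted p = 0.185), were also apart between ADX and Sham without passing. At the upper end stood Cpt2 (0.37) and Pdk2 (0.32). Heph was the 1 that fell of 14 iron and heme genes (9 positive, 5 negative, median 0.05). Alas2, the first enzyme of heme synthesis in red cells, read 4.86, 4.72, 6.01 and 4.40 in ADX, 7.25, 5.62, 5.27 and 5.73 in pADX and 6.38, 6.27, 6.25 and 6.28 in Sham (-1.30, adjusted p = 0.285), and Hmox1 (0.24) and Fech (0.15) were highest. Igfbp5 was the 1 that rose of 19 trophic genes (10 positive, 9 negative, median 0.02), in which Igf2 had 0.27, Ntrk2 -0.29 and the receptor gene Igf1r -0.46 (adjusted p = 0.28).

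None of the blood markers passed. Their summed linear level was 921 to 2140 in ADX, 1590 to 5760 in pADX and 2450 to 3180 in Sham arrays (two-sided exact permutation p = 0.0286, the smallest possible, and 0.2 after adjustment over 21 array measures). Of 6 measured markers, 5 had a negative change, but only 3 of the 6 were brighter probe sets. Epor, S100a9 and S100a8 were dim, and S100a8 rested at the floor. Hbb, a hemoglobin chain (-1.38), and Alas2 were lower in every ADX array than in any Sham array, a pattern held by 2.42% of the brighter probe sets. The part of the blood markers in the other changes was not tested. Oligodendrocyte markers had a median of 0.23 (8 of 11 positive, with Aspa at 0.48 and Opalin at 0.40), and a summed level of 25000 to 27400 in ADX and 21400 to 27000 in Sham arrays. The 9 astrocyte markers had 2 positive and 7 negative changes (median -0.05), and their summed level was 14900 to 16200 in ADX and 13500 to 17700 in Sham. Gfap alone of the 9 was apart, at 9.87, 9.84, 10.27 and 10.35 in ADX, 9.70, 9.87, 9.57 and 9.74 in pADX and 9.54, 9.56, 9.73 and 9.40 in Sham (0.52, adjusted p = 0.138). Among the brighter probe sets, 1.72% had every ADX array above every Sham array.

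Whether these changes differed from those elsewhere in the brain was tested on 12 units, each the dorsal raphe value minus the mean of the septum, hypothalamus, amygdala and locus coeruleus for 1 combination of treatment, time and replicate. None of 31042 probe sets passed (2383 had an unadjusted p under 0.05), and 1 of the brighter 18625 did (0.00537%), an unnamed probe set at -1.64. None of the 15 genes passed this test of difference. Replicate numbers were not shown to pair arrays, so the spread behind its intervals and p-values rests on an arbitrary matching. Htra1 had a change of -0.91 in the dorsal raphe, -1.22 in the septum, -1.11 in the hypothalamus, -1.33 in the amygdala and -0.96 in the locus coeruleus, and the difference of 0.24 had a 95% interval of -0.14 to 0.63. Sult1a1 differed by -0.11 (interval -0.45 to 0.22) and Paqr8 by 0.07 (-0.10 to 0.24).

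Sorcs1 had the widest gap among them relative to its error. It was picked on the same dorsal raphe arrays and then for this gap, so the interval below is no separate test. The change of Sorcs1 was -1.06 in the dorsal raphe, against 0.15 in the septum, -0.02 in the hypothalamus, 0.17 in the amygdala and 0.27 in the locus coeruleus. The difference of -1.20 (interval -1.72 to -0.68) had an adjusted p of 0.10 among the brighter probe sets and did not pass, nor did the difference from the locus coeruleus alone (-1.32, adjusted p = 0.0624). Grifin had -2.22 in the dorsal raphe, -0.10 in the septum, and lower bounds in size of -1.99, -0.66 and -1.34 in the hypothalamus, amygdala and locus coeruleus, where 1, 2 and 1 ADX arrays were at the floor (difference -1.20, adjusted p = 0.34). Against the locus coeruleus alone none of all probe sets passed in limma (2297 had an unadjusted p under 0.05), and 8 brighter ones did (0.043%). Those with a gene name were Dbndd1 (2.90), Gbf1 (2.47), Ddx56 (1.44) and Srprb (1.29), higher in the dorsal raphe difference, and Disp3 (-1.82), lower, with mean log2 intensities of 4.85 to 5.20, close to the floor.

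**Figure D5:**
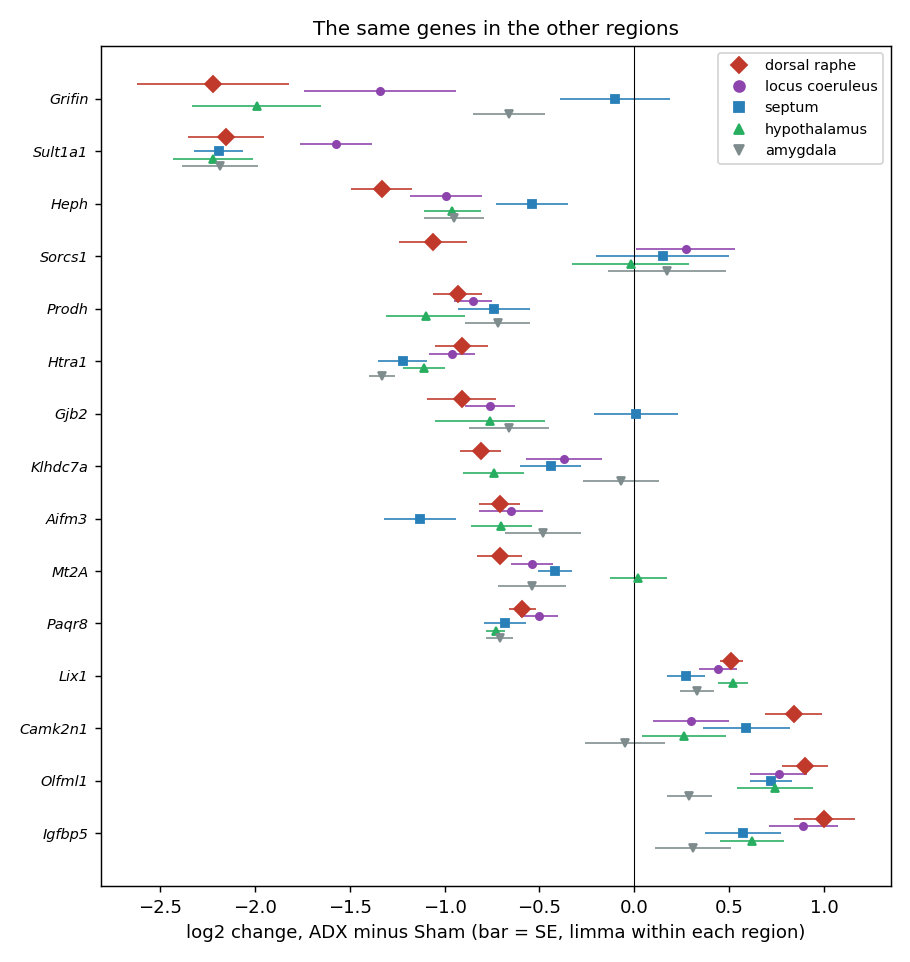
Log2 change, ADX minus Sham (horizontal axis), with SE, in the dorsal raphe (red diamonds) and 4 other regions for the 15 genes that passed in the dorsal raphe, each region fitted alone over all probe sets. Sult1a1, Htra1, Prodh and Paqr8 lie left of 0 in all 5 regions, while Sorcs1 is at -1.06 in the dorsal raphe and between -0.02 and 0.27 elsewhere.

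Below the threshold, 13 further genes were named by the smallest unadjusted p among brighter probe sets whose groups did not overlap. Those higher in ADX were Dhrs4 (0.80), Gosr2 (0.64), Rdh11 (0.63), a retinol dehydrogenase, Rpp21 (0.50), Zfp111 (0.46), Ptn (0.45), the growth factor pleiotrophin, Sytl2 (0.35), Peli1 (0.21) and Copg2 (0.11). Rdh11 came nearest to passing (adjusted p = 0.0524), followed by Ptn (adjusted p = 0.0644). Those lower in ADX were Disp3 (at least 1.15 lower, with 1 ADX array at the floor, adjusted p = 0.0687), Plin4 (-0.86), a lipid droplet protein, Spire1 (-0.39) and Marchf6 (-0.27). A second, brighter probe set of Peli1 had a change of -0.22, opposite in sign, and a brighter one of Disp3 a change of 0.32. A brighter probe set of Gosr2 had a change of 0.10. Other bright probe sets of Spire1 had changes of -0.32, -0.16 and 0.08.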

How the data were processed

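The authors deposited linear signal intensity per probe set for 82 arrays. Many share a trimmed mean of 150 and others do not, and their software is not stated. The array has 31099 probe sets, of which 57 controls were left out. Here the deposited intensities were quantile normalized over all 82 arrays, set to at least 16 and taken to log2, which left 27.5% of dorsal raphe values at the floor. The limma package 3.58.1 (lmFit and a trended eBayes, R 4.3.3) was fitted to the 12 dorsal raphe arrays with treatment and time of day as terms, and p-values were adjusted over all probe sets by Benjamini-Hochberg at 0.05. The number of arrays limits the precision. Of 31042 probe sets, 20826 carry 1 symbol, 436 several and 9780 none, and 20758 were matched to RefSeq GRCr8 names. In lists, a gene with several probe sets is given by its brightest, and elsewhere by the probe set that passed or met the naming rule. Genes were named by the largest change among those passing, filled to 12 in each direction by the smallest unadjusted p among brighter probe sets with groups apart, together with list members that passed or stood at the ends, and fixed genes. The members and lists were chosen with earlier results of these data known. Alternatives changed the normalization, floor, filter, terms and arrays. The fit was also run on simulated arrays with known changes. Those arrays lacked the brightness difference between groups, so they cannot test its effect on the calls made here. Replicate numbers were not shown to pair arrays. Figures were drawn with matplotlib 3.10.9.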

Additional observations from a re-analysis of the deposited data

Results flagged for a closer look

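Among 41 genes in 3 treatments, or 123 groups of 4 arrays, 7 groups held an array far from its fellows. Chance alone flags about 1 in 20 such groups. Zfp111 was high in ADX PM replicate 1, at 6.54 against 6.23 in the nearest ADX array, and low in Sham AM replicate 1, at 5.77 against 5.85 in the nearest Sham array. In pADX AM replicate 1, Copg2 read 9.44 (nearest 9.50) and Gosr2 read 5.94 (nearest 6.35). In pADX PM replicate 2, Fkbp5 read 6.56 (nearest 6.32) and Gch1 read 8.08 (nearest 7.12). Ddc was low in Sham PM replicate 2, at 9.97 against 10.63 in the nearest Sham array.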

How the results depend on the processing

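Alternatives to the comparison among the brighter probe sets, the leaving out of both Sham PM arrays and the filter within times and regions were added after seeing the data. The count for ADX against Sham over all probe sets, 2, became 7729 with values as deposited (1 rose), where the median change was -0.441, 15 with a floor of 1, 0 with a floor of 32 (limma; 1842 at an unadjusted p under 0.05), 20 with dim probe sets left out, 41 with 6 means of treatment by time, 10 with the scaling state as a term, 29 at AM alone, 25 at PM alone and 13 without both Sham PM arrays. It ran from 1 to 7 with 1 array left out. The count among brighter probe sets, 20, became 12318 as deposited, 13 with a floor of 32, 12 with ADX and Sham arrays only, 11 without time of day, 0 with the scaling state, 3 without a trend, 1 at AM alone, 1 at PM alone and 2 without both Sham PM arrays, and ran from 1 to 30 with 1 array left out. For pADX against Sham, 1 became 9 as deposited and 0 with a floor of 1, a floor of 32 or the filter (1 to 5 with an array left out). For ADX against pADX, 1 became 0 as deposited, with a common median or with the replicate block, and 8 with the filter (0 to 6). With the filter, 22 at AM became 1, 21 at PM became 3 and 34 for their difference became 0. The difference from 4 regions gave 26 as deposited and 1 with the filter (0 to 4), and that from the locus coeruleus 3 with the replicate block and 8 with the filter (0 to 2). Replicate numbers did not pair the arrays: correlations of 15 pairs ran from -0.12 to 0.22, with 3 over 0.1. The replicate block gave 3 for ADX against Sham over all probe sets and 15 among the brighter ones. Signs reversed as deposited for Lix1 (-0.01), Zfp111 (-0.11), Ptn (-0.07), Rpp21 (-0.06), Sytl2 (-0.17), Copg2 (-0.40), Peli1 (-0.31), Nr3c1 (-0.50), Nr3c2 (-0.25), Fev (-0.47), Slc18a2 (-0.13), Ddc (-0.44), Gch1 (-0.36) and Htr1a (-0.48). With the scaling state, and likewise without both Sham PM arrays, Nr3c1 gave -0.03, Fev -0.01 and Gch1 -0.12. AM alone gave -0.03 for Nr3c1 and -0.06 for Gch1, and PM alone 0.05 for Slc6a4. With 1 array left out, Slc6a4 ran from -0.26 to 0.03, Nr3c1 from -0.02 to 0.07, Fev from -0.03 to 0.16 and Ddc from -0.08 to 0.21. The cause was not tested. Signal near the floor limits dim probe sets.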

Other observations

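Neuropeptide genes of the raphe had more negative than positive changes without a call. Of 25 measured, 17 were negative and 6 positive (median -0.13), and none passed in limma. Galanin (Gal, -0.52) and the tachykinin receptor gene Tacr3 (-0.41) were lowest, and Cartpt (0.53) and Cck (0.35) highest. Penk, the enkephalin precursor, lay below Sham in every ADX array (-0.31, adjusted p = 0.331 among the brighter probe sets). The dim Galr1 (-0.2) did too. That pattern was held by 2.42% of the brighter probe sets and 1.81% of all. Of 20 clock genes none passed (12 positive, 8 negative, median 0.05), with Rorb (0.66) and Dbp (0.60) highest and Nfil3 (-0.37) and Npas2 (-0.36) lowest.

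Receptor, activity and vesicle genes also held no passing member. The 12 GABA-A subunit genes had 6 positive and 6 negative changes (median -0.01), with Gabre (0.80) and Gabra3 (0.65) highest and Gabra6 (-0.81) and Gabrd (-0.51) lowest. Gabra6 is a cerebellum marker that stood high in Sham AM replicate 2, as did the cerebellum list as a whole (5 of 6 negative, median -0.61, -1.45 at AM and 0.20 at PM). The 15 glutamate receptor genes had 5 positive and 10 negative changes (median -0.10), from Grin2c (-0.22) and Grik5 (-0.20) to Grin2b (0.22). The 19 immediate early genes had a median of 0.01, from Nr4a2 (-0.29) to Ier2 and Fos (0.14 each). The 18 endoplasmic reticulum chaperone genes had a median of 0.04, from Hyou1 (-0.21) to Pdia4 (0.35), and the 18 synaptic vesicle genes one of 0.03, from Rab3a (-0.14) to Cplx2 (0.49).

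Other cell type markers held no passing member either. The median was 0.16 over 10 microglia markers (6 positive, 4 negative), from C1qa at -0.19 to Tyrobp at 0.44. Over 9 endothelial markers the median was 0.15 (7 positive, 2 negative), from Abcb1a at -0.75 to Vwf at 0.78. It was 0.24 over 6 dopamine neuron markers, -0.15 over 5 noradrenergic, -0.19 over 6 motor neuron, 0.05 over 5 GABA neuron and 0.02 over 8 pan-neuronal markers. It was 0.00 over 5 choroid plexus, -0.06 over 4 ependyma, -0.04 over 8 meninges and -0.01 over 6 forebrain markers. The median over all named genes was 0.00.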
